A study of Homo sapiens with 8 samples.

Results

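The regions described here carried an m6A peak in both METTL3 knockdown replicates and in neither control replicate of HepG2 cells. The peaks of 4 lists, 1 for each immunoprecipitated sample, were merged where they shared at least 1 base, and the regions were then selected on the presence or absence of a peak in each list. This rule found 641 of 12221 merged regions. They are called siMettl3-only regions below, and the 635 regions with a peak in both controls and in neither knockdown sample are called siControl-only regions. Regions with a peak in every list are called 4-list regions, of which there were 3875.

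HepG2 is a cell line from a human hepatocellular carcinoma with many features of liver cells. The cells were transfected with control siRNA (siControl) or with a siRNA against METTL3 (siMettl3) and harvested 48 h later. A single METTL3 siRNA was named in the study's methods, and no other agent or genetic change is named for either group. Each group had 2 immunoprecipitated samples with a peak list, and the input RNA libraries were not analysed here. Nothing in the labels said whether the replicates came from separate transfections, so the spread between them may be technical.

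N6-methyladenosine (m6A) is a methyl mark on adenosines within mRNA. It is written by a complex in which METTL3 is the catalytic subunit and METTL14 its partner, removed by the demethylases FTO and ALKBH5, and read by YTH domain proteins that act on mRNA decay and translation. In m6A-seq, fragmented mRNA is pulled down with an antibody against m6A and sequenced beside the input, and a peak is a stretch of the genome where the pulled-down RNA exceeds its background. A peak list therefore holds the places that passed a significance limit, and a place without a peak may still hold m6A below that limit. METTL3 loss is known to lower m6A, but the study states that it did not verify this in its own cells. The siMettl3-only regions are those where a peak was listed in both knockdown samples and in neither control sample.

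The lists held between 6888 and 8577 peaks, with 1945803 to 2426342 tags (sequenced reads) inside peaks, and the depth of the libraries is unknown. The submitters' processing notes name the genome build hg19, and all positions are given in it. The lists contain no gene names, and no hg19 annotation was used here, so regions are identified by position. For the same reason the METTL3 transcript and liver marker transcripts could not be looked up as a check of the labels. The study itself reported lower METTL3 mRNA and protein after knockdown in HepG2 cells, by qRT-PCR and immunoblotting.

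The 641 siMettl3-only regions were 5.25% of all merged regions, and the 635 siControl-only regions were 5.2%. Pairs across the groups also had regions of their own, 522 (4.27%) only in both replicates 2 and 93 (0.761%) only in both replicates 1. A further 330 (2.7%) were only in siControl replicate 2 and siMettl3 replicate 1, and 177 (1.45%) only in siControl replicate 1 and siMettl3 replicate 2. Since the rule used the contrast of siMettl3 with siControl, nothing is read from the count of siMettl3-only regions. In each siMettl3-only region both replicates had exactly 1 peak, and the shared stretch was at least 292 bases long. The peaks of both replicates covered largely the same bases, with a median Jaccard index (shared bases over the bases in either peak) of 87.3%.

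The siMettl3-only regions had a median length of 1073 bases, between the 952 bases of the siControl-only regions and the 1386 bases of the 4-list regions. Their lengths ran from 411 to 7960 bases, with the middle of the distribution between 861 and 1438 bases. There were 259 regions (40.4%) under 1000 bases, against 358 (56.4%) of the siControl-only regions, and 26 regions (4.06%) over 3000 bases, against 10 (1.57%).

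Fold enrichment, the ratio of immunoprecipitated over background signal that the peak caller gave, was moderate. In siMettl3 replicate 1 it ranged from 1.68 to 8.94 with a median of 4.33. In siMettl3 replicate 2 it ranged from 1.95 to 9.89 with a median of 4.8. Replicate 2 was the higher of the pair in 432 regions (67.4%), and the median ratio of replicate 2 over replicate 1 was 1.1. The 4-list regions gave the same picture in these samples, with replicate 2 higher in 65.7% and a median ratio of 1.09. The log2 fold enrichments of the replicates were related across the 641 regions with a Pearson's r of 0.683 and a Spearman's rho of 0.64, where regions of 1 sample are not independent of each other. In the 4-list regions r was 0.746 and rho 0.732.

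**Figure D1:**
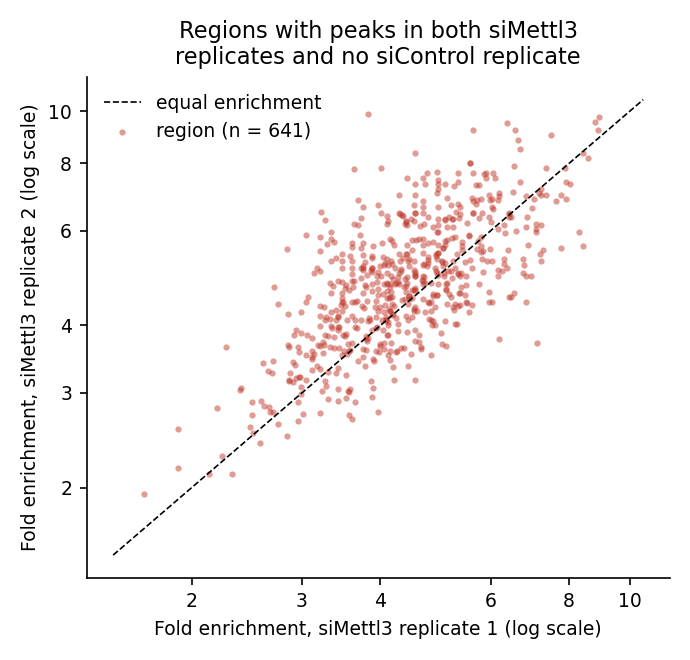
Fold enrichment of the 641 siMettl3-only regions in siMettl3 replicate 1 (x axis) and replicate 2 (y axis), both on a log scale, with 1 point per region and a dashed line of equal enrichment. More points lie above the line than below it, as replicate 2 was higher in 432 regions, and the medians are 4.33 and 4.8.

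The siMettl3-only regions held fewer tags than the 4-list regions. The median number of tags was 145 in siMettl3 replicate 1 and 118 in replicate 2, against 235 and 204 in the 4-list regions. Per kb of peak the medians were 143.6 and 122.1 tags, against 191.2 and 168.6. The siControl-only regions also held fewer tags than the 4-list regions. Their medians in siControl replicates 1 and 2 were 107 and 123 tags, against 227 and 258 in the 4-list regions. Per kb of peak these were 125.0 and 144.3, against 183.2 and 204.0. In most siMettl3-only regions the number of tags was lower in siMettl3 replicate 2, and only 76 (11.9%) had more tags there than in replicate 1. Tags were the most reproducible of the measures, with a Pearson's r of 0.966 between the replicates on the log2 scale. Tags follow the abundance of the transcript as well as its m6A, and abundance was not measured here.

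Most of the siMettl3-only regions were weak by significance. The peak score is the negative log10 of the caller's p-value times 10, and the lists begin at a score of about 50. The median score was 80.4 in replicate 1 and 80.3 in replicate 2, while the 4-list regions had 164.8 and 183.3. In the ranking of each list by score, the median siMettl3-only peak stood at rank 4842 of 7138 peaks in replicate 1 and at rank 5803 of 8577 in replicate 2. The scores of the replicates followed each other less than the tags did, with a Spearman's rho of 0.299 against 0.949 for the tags. In the 4-list regions the rho of the scores of these samples was 0.619. The lower of a region's scores had a median of 66.5 and was under 60 in 223 regions (34.8%). It was at least 100 in 109 regions (17%), at least 200 in 19 (2.96%) and at least 300 in 5. The siControl-only regions had scores a little further from the limit, with 173 (27.2%) under 60 and 143 (22.5%) of at least 100.

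The share of peaks that lay in siMettl3-only regions was lower at higher scores. In siMettl3 replicate 1 it was 13.7% among 1659 peaks with a score from 50 to 70, 9.54% from 100 to 150, 3.8% from 200 to 300 and 0.726% among 413 peaks of 500 or more. In siMettl3 replicate 2 the share was 11.6%, 6.92%, 2.9% and 0.35% in the same classes. The siControl-only regions took 13.1% and 11.5% of the weakest peaks of the control replicates and 0.909% and 0.377% of the strongest.

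**Figure D2:**
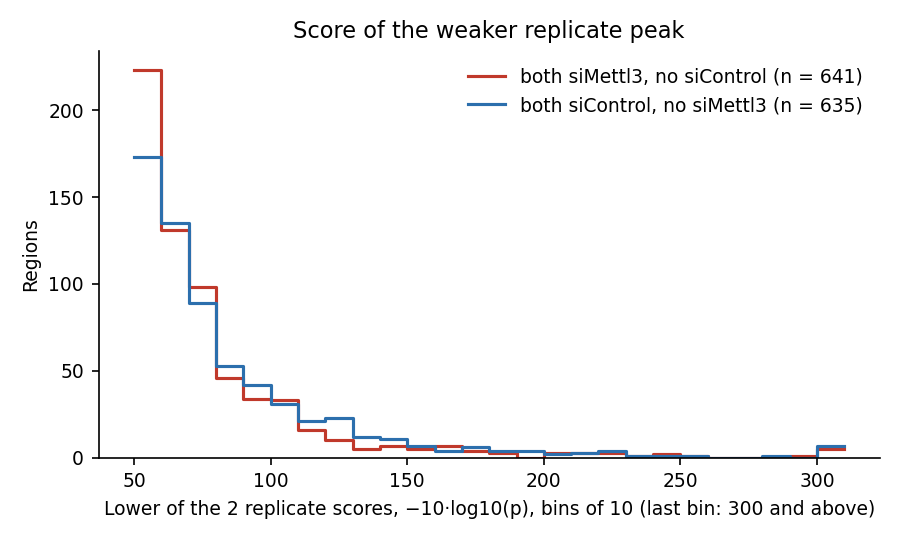
Number of regions (y axis) by the lower of the 2 replicate scores (x axis, bins of 10, with scores of 300 and above in the last bin) for the 641 siMettl3-only and the 635 siControl-only regions. Both curves are highest next to the limit of 50, where 223 siMettl3-only and 173 siControl-only regions fall between 50 and 60.

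The false discovery rate (FDR) listed with these peaks was high. Its median was 91.3% in replicate 1 and 70.1% in replicate 2, against 49.2% and 31.7% in the 4-list regions. It was high in the siControl-only regions too, with medians of 88.5% and 84.2% in siControl replicates 1 and 2. The 4-list regions had 37.8% and 26.1% in these samples. In 42 siMettl3-only regions (6.55%) both replicates had an FDR of at most 50%, in 1 region both had at most 25%, and no region had a peak with an FDR of at most 5%. Among the siControl-only regions, 57 (8.98%), 14 and 3 met these limits.

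The rule has limits in score and in position. Just inside the limit in score were chr15:41828357-41829653, with scores of 53.86 in replicate 1 and 50.03 in replicate 2, and chr3:197427287-197428178, with scores of 84.56 and 50.09. In 66 regions a score was under 52. Places just below a score of 50 are not listed, so the values outside this limit are unknown. In position, the nearest siControl peak lay a median of 21.9 kb away (quartiles 5.65 and 61.2 kb). It was within 100 bases of 6 siMettl3-only regions and within 1000 bases of 47 (7.33%). Just outside the rule were the 4852 other regions with peaks in both knockdown replicates. In each of these the longest overlap of a control peak with a knockdown peak was at least 382 bases, so no region was left out of the siMettl3-only regions for an overlap of a few bases.

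The summits of both replicates fell close together, which the rule did not require. The median distance between the summits of siMettl3 replicates 1 and 2 was 32 bases in the siMettl3-only regions (quartiles 10 and 75). It was within 50 bases in 401 regions (62.6%) and within 100 bases in 529 (82.5%), and in 16 regions both summits were on the same base. In the 4-list regions the summits of these samples were 42 bases apart at the median, with 80.1% within 100 bases. The control replicates placed their summits closer to each other, with medians of 16 bases in the siControl-only regions and 18 bases in the 4-list regions. Over 500 bases lay between the summits in 23 siMettl3-only regions (3.59%).

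The regions were ranked by the lower of their fold enrichments, and the first 10 are described. The highest was chr11:64590933-64591917, with a fold enrichment of 8.94 in siMettl3 replicate 1 and 9.76 in replicate 2 and with 112.7 and 97.1 tags per kb of peak. Its summits were 12 bases apart, and its nearest neighbor, 10.3 kb away, was another siMettl3-only region. The second was chr5:176980839-176982007, with fold enrichments of 8.9 and 9.22 and 172 and 135 tags. Its nearest control peak was 28.4 kb away.

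The third, chr16:57551785-57552692, had fold enrichments of 8.81 and 9.55 and lay 4.81 kb from a 4-list region. The seventh, chr3:138191118-138192120, had 7.49 and 9.04, with scores of 221.4 and 266.2, and its nearest control peak was 66.9 kb away. These 4 of the 10 also had an FDR of at most 50% in both replicates. The other 6 were chr11:71639889-71640684, chr17:7382374-7383317, chr13:51289214-51290239, chr1:19811423-19812490, chr2:164592347-164593269 and chr22:28381581-28382448. Their fold enrichments ran from 7.33 to 8.56. All 10 were compact, between 796 and 1169 bases long, and their summits lay within 91 bases of each other. Their tags were few, from 56 to 172 per peak, and the score of chr1:19811423-19812490 was only 53.62 in replicate 2.

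The regions that led by score were longer and held more tags. The highest lower score was that of chr12:57848861-57851608, a region of 2748 bases with scores of 424.5 in siMettl3 replicate 1 and 429.74 in replicate 2. It held 777 and 555 tags at fold enrichments of 5.92 and 5.27, its summits were 4 bases apart, and a control peak lay 4.28 kb away. The next was chr4:3767062-3770355, with scores of 401.16 and 680.21. This region differed from the others in its low fold enrichment of 1.9 and 2.57 with 3430 and 2367 tags, and its summits were 723 bases apart.

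Scores of 439.9 and 360.39 were found at chr10:21803864-21806086, with 210 and 218 tags at fold enrichments of 7.09 and 6.04. At chr7:90893592-90896785 the scores were 338.92 and 361.55, and the nearest control peak was 605.5 kb away. At chr1:27331604-27333605 they were 501.47 and 312.23, with fold enrichments of 7.22 and 6.99. These 5 regions are the only ones with a score of at least 300 in both replicates.

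The longest region was chr11:65380140-65388099, with 7960 bases. It had 3508 and 1598 tags and fold enrichments of 3.5 and 3.58, but its score in replicate 1 was 52.57, against 156.74 in replicate 2. The next were chr1:33234956-33240538, with 5583 bases and fold enrichments of 2.66 and 2.82, and chr1:9322876-9328074, with 5199 bases and 3.43 and 3.97. The last of these lay 13 bases from a control peak, the smallest such gap among all siMettl3-only regions. Its summits in both replicates were 1 base apart.

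The chromosomes contributed unequal shares. On chromosome 19, the most gene-dense human chromosome, 63 of 873 merged regions (7.22%) were siMettl3-only and 15 (1.72%) siControl-only. On chromosome 22 the numbers were 21 (7.17%) and 5 (1.71%) of 293. The siMettl3-only regions also outnumbered the siControl-only regions on chromosome 11 (39 against 20), chromosome 9 (33 against 17), chromosome 17 (47 against 29) and chromosome 16 (41 against 27). Their shares of the merged regions there were 6.53%, 6.23%, 6.22% and 6.58%, where 5.25% of all merged regions were siMettl3-only. The siControl-only shares were 3.35%, 3.21%, 3.84% and 4.33%, against 5.2% of all merged regions. The opposite held on chromosomes 13 (6 against 18), 18 (5 against 15), 21 (5 against 12), 4 (15 against 29), 10 (20 against 37) and 6 (24 against 43). In the same order, the siMettl3-only shares were 2.65%, 2.66%, 3.29%, 3.65%, 3.98% and 3.85%. The siControl-only shares were 7.96%, 7.98%, 7.89%, 7.06%, 7.36% and 6.89%. On chromosome 8 both kinds were few, with 10 (2.63%) and 15 (3.95%) of 380 merged regions. Chromosome 1, with the most regions, held 67 (5.55%) and 64 (5.3%). Chromosome Y held no siMettl3-only region among 18 merged regions.

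The gene-poor chromosomes 4, 13 and 18 together held 4.06% of the siMettl3-only and 9.76% of the siControl-only regions, with 6.75% of all merged regions. Chromosomes 14, 17 and 20, which are among those present in extra copies in HepG2, held 12.9% and 12%, with 12.5% of all merged regions.

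Over the 23 chromosomes with siMettl3-only regions, the balance of both kinds followed the density of 4-list regions. The 4-list regions numbered 4.81 per Mb on chromosome 19 and 3.13 on chromosome 22, but 0.63 on chromosome 4 and 0.784 on chromosome 13. Chromosome X had the lowest density of the 23, 0.574 per Mb, with 14 siMettl3-only and 13 siControl-only regions. The log2 ratio of siMettl3-only to siControl-only regions was related to the log2 of this density with a Pearson's r of 0.721, and Spearman's rho was 0.611 (n = 23 chromosomes). The points come from the same 4 libraries, and the 4-list regions are counted from the same lists as both kinds of region, so the relation is a description. The siMettl3-only regions on chromosome 19 were close to those elsewhere in fold enrichment and length. Their median fold enrichments in siMettl3 replicates 1 and 2 were 4.41 and 4.82 against 4.31 and 4.79. Their median length was 1108 against 1072 bases. The median scores were 90.1 and 76.9 against 80.0 and 80.5, and the median numbers of tags 156 and 138 against 145 and 116.

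**Figure D3:**
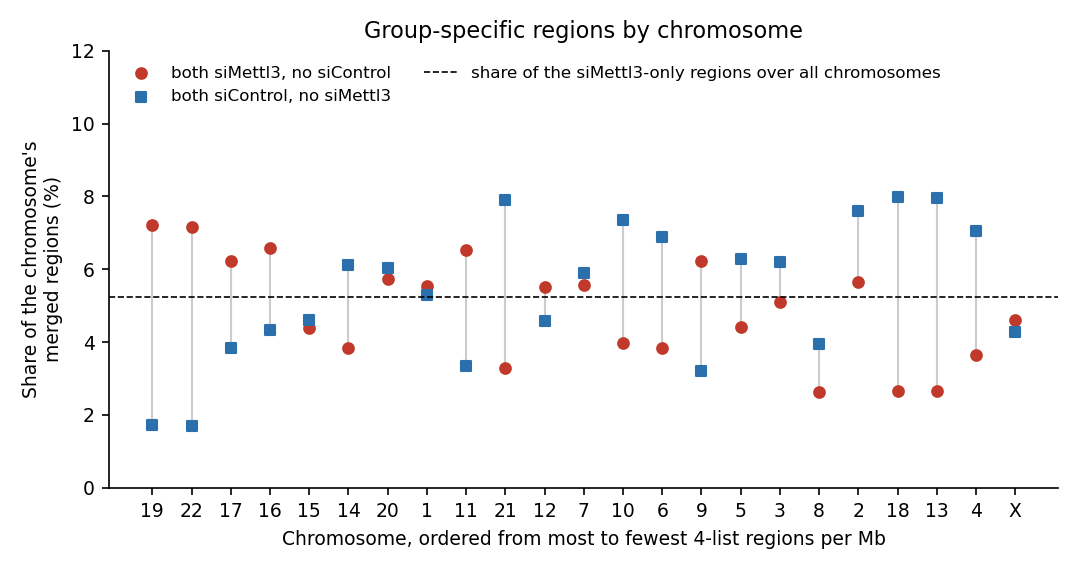
Share of each chromosome's merged regions (y axis, %) that were siMettl3-only (circles) or siControl-only (squares), with the chromosomes ordered on the x axis from the most to the fewest 4-list regions per Mb and a dashed line at 5.25%. Circles lie above squares on chromosomes 19, 22, 17 and 16 at the left, and below them on 2, 18, 13 and 4 toward the right. Against this order, circles lie below squares on 15 and 14, next to 16, and above the square on X, the last at the right. Chromosome Y is left out, since it held no siMettl3-only region.

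The regions found in a single list have no region in common with the siMettl3-only regions, and they were counted in the same way. Of the regions with a peak in 1 list alone, 3.25% lay on chromosome 19 for siControl replicate 1 (22 of 677) and 3.19% for siControl replicate 2 (26 of 814). The values were 12.6% for siMettl3 replicate 1 (114 of 907) and 7.29% for siMettl3 replicate 2 (102 of 1399). Both knockdown samples were above both controls, and replicate 1 was the higher. The mean of the knockdown samples was 9.95% ± 3.75 and that of the controls 3.22% ± 0.0424 (SD, n = 2 per group). The p of an exact permutation of the samples was 0.33, which is the smallest that 2 samples against 2 allow in a two-sided test, and 0.47 after adjustment over 7 tests.

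On chromosomes 4, 13, 18 and 21 the order was turned, with 4.52% for siMettl3 replicate 1 and 7.86% for replicate 2, and 10.8% and 10.9% for the controls (exact permutation p = 0.33, adjusted p = 0.47). Of all peaks of a list, 8.87% and 7.59% were on chromosome 19 in siMettl3 and 6.1% and 6.62% in siControl. Base composition and the depth of the libraries were not measured, and their part in these shares was not tested. The chromosomes were picked after the shares of the siMettl3-only regions had been seen.

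The siMettl3-only regions were nearer to 4-list regions than the siControl-only regions were, which is given as a description without a test. The gap to the nearest 4-list region had a median of 61.0 kb (quartiles 17.4 and 161.3 kb) for the siMettl3-only regions and of 108.5 kb (quartiles 25.9 and 367.4 kb) for the siControl-only regions. The 4-list regions themselves were 62.2 kb from the next one. Regions found only in 1 control and 1 knockdown list also had shorter medians than the siControl-only regions. These were 53.0 kb for siControl replicate 2 with siMettl3 replicate 1 and 79.8 kb for siControl replicate 1 with siMettl3 replicate 2. For both replicates 1 the median was 71.2 kb, and for both replicates 2 it was 72.0 kb. A median near 61.0 kb was thus not particular to the siMettl3-only regions. Within 100 kb there was a 4-list region for 405 siMettl3-only regions (63.2%) and for 305 siControl-only regions (48%). At short range the kinds were less far apart, with 110 (17.2%) and 87 (13.7%) within 10 kb and 23 (3.59%) and 20 (3.15%) within 1 kb. More than 1 Mb lay between 28 siMettl3-only regions (4.37%) and the nearest 4-list region, against 65 (10.2%). The order rested in part on siMettl3 replicate 1. With that list left out and all regions defined on the other 3 lists, the siMettl3-only median was 51.5 kb and the siControl-only median 62.1 kb. They were 51.9 and 99.5 kb without siMettl3 replicate 2, 44.6 and 80.5 kb without siControl replicate 1, and 61.2 and 110.6 kb without siControl replicate 2.

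The order was not the same on every chromosome. On chromosome 19 the medians were 38.8 kb for 63 siMettl3-only and 35.6 kb for 15 siControl-only regions. Outside chromosomes 19 and 22 they were 63.5 and 111.9 kb. The siMettl3-only regions had the shorter median on 14 of 23 chromosomes. Strong and weak siMettl3-only regions differed little in this respect, with medians of 59.3 kb where both scores were at least 100 and 61.1 kb for the rest.

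The 3 regions closest to a 4-list region were chrX:53589642-53590088, chr11:575990-576789 and chr22:23658770-23659645, at gaps of 67, 119 and 136 bases. All 3 were short, with 447 to 876 bases, and weak, with scores between 53.32 and 84.4. Their fold enrichments ran from 3.4 to 5.68.

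**Figure D4:**
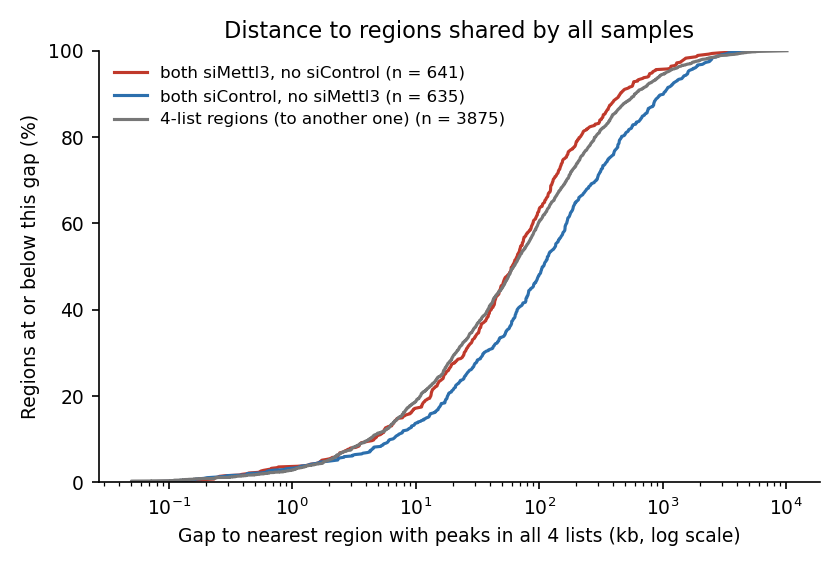
Share of regions (y axis, %) whose gap to the nearest 4-list region is at or below the value on the x axis (kb, log scale), for siMettl3-only regions, siControl-only regions and the 4-list regions themselves. The curve of the siControl-only regions runs to the right of the others from about 10 kb on, with medians of 108.5 kb against 61.0 and 62.2 kb.

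The regions found in 1 list alone showed distances in the same order. Their median gap to a 4-list region was 57.4 and 80.8 kb in siMettl3 replicates 1 and 2 and 133.2 and 92.7 kb in siControl replicates 1 and 2. The knockdown samples had a mean of 69.1 ± 16.5 kb and the controls of 112.9 ± 28.6 kb (SD, n = 2 per group, exact permutation p = 0.33, adjusted p = 0.47).

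Most siMettl3-only regions did not stand next to another one. In the order along the chromosomes, 542 of them stood alone, 92 formed 46 adjacent pairs, and 1 run of 3 and 1 run of 4 were found. The run of 4 lay within 22.2 kb at chr1:151490941-151513099, with fold enrichments between 5.04 and 7.15. The run of 3 spanned 139.7 kb at chr11:61519681-61659359. The next region on either side was most often a 4-list region (195 regions, 30.4%, where 31.7% of all regions were of this kind). It was another siMettl3-only region for 57 (8.89%, against 5.25% of all regions) and a siControl-only region for 23 (3.59%, against 5.2%). The siControl-only regions likewise had one of their own kind nearest in 62 cases (9.76%, against 5.2%). A siControl-only region lay within 10 kb of 6 siMettl3-only regions.

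The 4-list regions next to siMettl3-only regions had a fold enrichment in every sample, and the rule did not use these values. They were chosen for lying near regions that were selected in the same 4 libraries, so the comparison is not independent of the rule. There were 120 such regions within 10 kb. On the log2 scale, the median of their fold enrichments was 2.14 for siControl replicate 1 and 2.24 for replicate 2, and 2.27 and 2.35 for siMettl3 replicates 1 and 2. Both knockdown samples were above both controls, by a narrow margin between siControl replicate 2 and siMettl3 replicate 1. The difference of the means was 0.11 on the log2 scale, with means of 2.31 ± 0.0566 after knockdown and 2.19 ± 0.0737 in the controls (SD, n = 2 per group, exact permutation p = 0.33, adjusted p = 0.47). Without siControl replicate 1 the difference was 0.0627. For the 396 4-list regions within 50 kb it was 0.0479, with medians of 2.10 and 2.25 in the controls and 2.17 and 2.28 after knockdown, so that the groups overlapped. Over all 4-list regions the same difference was 0.0018.

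In 34 of the 120 regions (28.3%) both siMettl3 values were above both siControl values, and in 20 (16.7%) both were below. Over all 3875 4-list regions these shares were 20.6% and 21.1%. The 100 4-list regions within 10 kb of a siControl-only region showed the reverse order, with 13 above and 24 below. Their medians were 2.21 and 2.23 in the controls and 2.15 and 2.31 after knockdown, so that the groups overlapped (difference 0.0092, exact permutation p = 1.0, adjusted p = 1.0, n = 2 per group). Both kinds of neighbors were chosen by nearness to regions selected in these same libraries, and the difference between them was not tested.

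**Figure D5:**
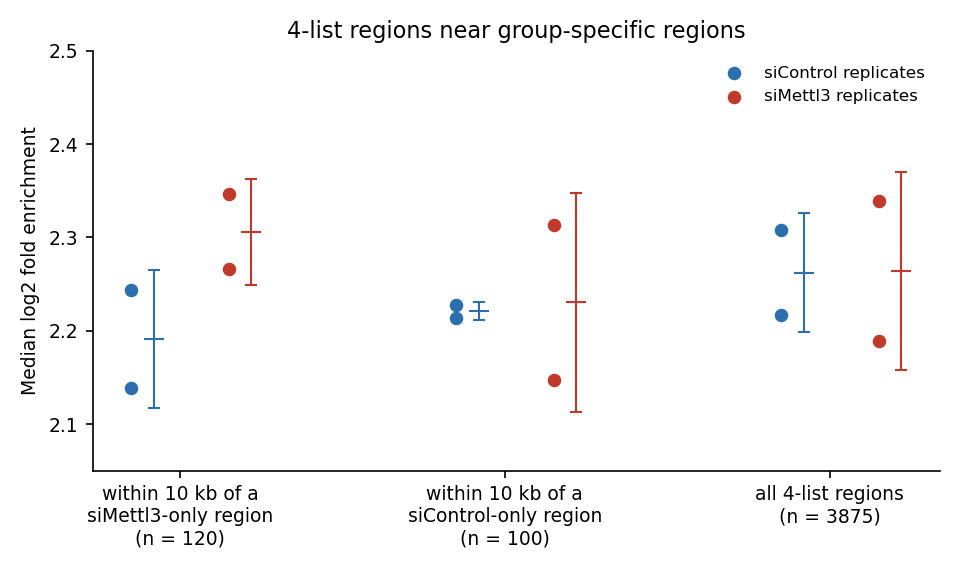
Median log2 fold enrichment (y axis) of the 4-list regions within 10 kb of a siMettl3-only region, of those within 10 kb of a siControl-only region and of all 4-list regions. Points are the replicates, and bars show the mean ± SD (n = 2). The groups are apart only in the first set, where the siMettl3 points (2.27 and 2.35) are above the siControl points (2.14 and 2.24).

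A limma fit over the 3875 4-list regions, with Benjamini-Hochberg adjustment, called 0 of the 120 neighbors and 0 regions in all (0%) at an adjusted p of at most 0.05. At an unadjusted p under 0.05, 9 of the 120 neighbors (7.5%) were higher in siMettl3 and 4 (3.33%) lower, where 4.65% and 4.95% of all 4-list regions were. The highest log2 difference among the neighbors was at chr19:39797646-39798918, 5.56 kb from a siMettl3-only region. It had a fold enrichment of 4.68 and 6.34 in the controls and of 11.17 and 12.09 after knockdown, a log2 difference of 1.09 ± 0.198 (SE, limma, adjusted p = 0.373).

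The next was chr5:666834-669161, with 5.96 and 4.4 in siControl and 10.2 and 10.97 in siMettl3 (log2 difference 1.05, limma, adjusted p = 0.373). The lowest was at chr17:36966375-36967046, with 6.57 and 9.27 in siControl and 4.75 and 6.02 in siMettl3 (log2 difference −0.545, limma, adjusted p = 0.502).

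Outside chromosomes 19 and 22 the 100 neighbors gave a difference of 0.13. On chromosomes 19 and 22 alone, 20 neighbors gave −0.03 as the difference of the group means of sample medians, but 0.20 as the median of the differences of single regions, and 9 of the 20 were above and 3 below in both knockdown samples. Over all 283 4-list regions of chromosome 19 the controls had medians of 2.13 and 2.24 (log2 fold enrichment) and the knockdown samples of 2.19 and 2.32, a difference of 0.07 (exact permutation p = 0.67, adjusted p = 0.78, n = 2 per group). The siMettl3 replicates were both above the siControl replicates in 76 of these (26.9%) and both below in 35 (12.4%).

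Membership depended on the limits of the lists more than on how peaks were joined. Peaks up to 100 bases apart could be merged with 634 of the 641 regions (98.9%) still present, a rule that counted a sample only where its peaks covered 50% of a region kept 627 (97.8%), and a rule that compared peaks directly kept all of them. With a score of at least 70 required in every list, 503 regions were siMettl3-only, but only 287 of the 641 (44.8%) were among them. The limit removes control peaks as well, so that other regions then met the rule. With the same number of peaks from each list, 417 (65.1%) of the 641 were among 538 regions. With an FDR of at most 50% in every list, 42 (6.55%) were among 239. All 6 of these rules kept 41 regions (6.4%), with median fold enrichments of 5.2 and 5.96 and a median length of 1680 bases. All 5 regions that led by score and 4 of the 10 that led by fold enrichment were among the 41. A siMettl3-only region has no control peak, so it stays under the score and FDR limits wherever its own peaks pass them. The FDR limit alone left 42, so a place among the 41 says little beyond a region's own FDR.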

How the data were processed

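m6A-seq peaks of HepG2 cells were analysed in 2 siControl and 2 siMettl3 immunoprecipitated samples, grouped by the sample titles. The submitters' processing notes name CASAVA 1.8.2, MACS 1.4.2 and hg19, and the aligner is not given in the sources used here. The authors deposited 1 peak list per sample, with replicates not pooled. The deposited number of tags is a whole-number count over the sample's own peak, not scaled for library size. The deposited score is 10 times the negative log10 of the p-value, the deposited fold enrichment is a linear ratio over background, and the deposited FDR is in percent. The counts belong to different intervals and library depth is unknown, so no count model and no counting interval were used.

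Overlapping peaks (1 base or more, 1-based) were merged into regions, which bedtools 2.31.1 merged to the same number. A sample's fold enrichment in a region was that of its highest peak, its score that of its most significant peak. Gaps were taken between region edges. The siMettl3-only regions have no value in siControl, so their enrichment was described and not tested. Groups were compared on 1 value per sample by an exact permutation of the samples (two-sided, 6 relabellings), with Benjamini-Hochberg adjustment over 7 tests. The 4-list regions were fitted with limma 3.58.1 (lmFit, eBayes, log2 fold enrichment without a pseudocount, Benjamini-Hochberg, tested on simulated data). Python 3.11.15, numpy 2.4.6, pandas 2.3.3, scipy 1.17.1, matplotlib 3.10.9 and R 4.3.3 were used.

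The regions and lists were chosen with earlier results of these data known. The regions described singly were the 10 with the highest lower fold enrichment, the 5 with the highest lower score, the 3 longest and the 3 closest to a 4-list region. The 2 with the lowest score, the runs and the neighbors with the largest changes were chosen after their values were seen. Gene annotation, gene lists, marker genes, motifs and sequences were planned for an hg19 reference and were not analysed here.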

Additional observations from a re-analysis of the deposited data

How the results depend on the processing

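The number of siMettl3-only regions was 641. It was 503 to 656 with a score of at least 70, the same number of peaks per list, peaks up to 100 bases apart merged, a sample counted only where its peaks cover 50% of a region, or direct overlap, and 239 with an FDR of at most 50%. With 1 list left out it ranged from 850 to 2049 (850 and 1411 without siControl replicate 1 and 2, 2049 and 1553 without siMettl3 replicate 1 and 2), since fewer lists then had to meet the rule. Median fold enrichment was 4.6, and 5.21 under the FDR limit. The median lower score, 66.5, was 66.5 with merging over 100 bases, 67.1 with 50% coverage, 77.2 with equal numbers of peaks, 89.9 with a score of at least 70 and 175.1 with the FDR limit. The median length, 1073 bases, was 1117 bases under the score limit and 1456 under the FDR limit. The median gap to a 4-list region, 61.0 kb, was 59.9 kb with direct overlap, 60.4 kb with merging over 100 bases, 63.0 kb with 50% coverage, 68.5 kb with equal numbers of peaks, 87.0 kb with a score of at least 70 and 198.3 kb with the FDR limit. It was 62.2 kb between midpoints and 16 kb to the nearest region of any other kind. The siControl-only median, 108.5 kb, was 62.1 kb without siMettl3 replicate 1 (siMettl3-only 51.5 kb) and 80.5 to 110.6 kb without another list. In settings chosen after seeing the data the siMettl3-only median was 63.5 kb without chromosomes 19 and 22 and 38.8 kb on chromosome 19 alone. The causes were not tested.

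The share of siMettl3-only regions on chromosome 19, 9.83%, ranged from 8.15% to 11.5% over these settings (also chosen after seeing the data), and that of siControl-only regions, 2.36%, from 1.41% to 4.01%. The difference in median log2 fold enrichment near siMettl3-only regions, 0.1148, was −0.0325 on chromosomes 19 and 22 alone (20 neighbors, chosen after seeing the data). It was above 0 in the other settings run, from 0.0479 within 50 kb to 0.1349 without chromosomes 19 and 22, and from 0.0627 to 0.1669 with a replicate left out (0.0627 without siControl replicate 1). Pairing by replicate number (a replicate block) gives the same 0.1148 by arithmetic, so it is no check of this value. The paired differences were 0.1269 and 0.1028. The limma fit called 0 of the neighbors in each setting that kept all 4 samples. With the replicate block the smallest adjusted p of the limma fit was 0.0647. At an unadjusted p under 0.05, 13 of 120 neighbors (10.8%) were then higher and 5 (4.17%) lower. Over all 3875 4-list regions, 251 were higher and 246 lower in that fit. The siMettl3-only regions themselves have no value in siControl, so they cannot be paired.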
